A study of Homo sapiens with 8 samples.

Results

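The genes described here encode 10 transcription factors of the myeloid lineage, namely SPI1, CEBPA, CEBPB, CEBPE, IRF8, GFI1, ETV6, IKZF1, FLI1 and MYB. They were taken by symbol, as a list, from 60196 gene symbols counted in the study, and all 10 were found. The study sequenced RNA of P-bodies and of the cytosolic fraction (named "cyto" in the titles) in MOLM-13 and in HEL, established human acute myeloid leukaemia lines, and its title speaks of RNA sequestration that sustains myeloid leukaemia. The groups were MOLM-13 P-body, MOLM-13 cytosol, HEL P-body and HEL cytosol, with 2 libraries in each. The labels give no genotype, treatment or time, and the culture medium they describe was the same in all groups. MOLM-13 has monocytic character and HEL erythroid and megakaryocytic character, so each line stands for itself and not for a stage of normal myelopoiesis.

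P-bodies are granules of RNA and protein in the cytoplasm in which messenger RNAs are kept apart from translating ribosomes, together with decay and repression factors. Among the factors, SPI1 encodes the ETS protein PU.1, which drives monocyte and B cell fates, and the C/EBP proteins open granulocyte and macrophage programmes. IRF8 steers progenitors to the monocyte and dendritic cell side, GFI1 represses that side in favour of neutrophils, and MYB keeps progenitors dividing and undifferentiated.

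The order in which the mRNAs of these genes were distributed between P-bodies and cytosol followed the share of G and C in their transcripts closely. Short stretches of coding sequence are shown as examples of composition at its extremes, and such stretches do not by themselves follow that order. The last 60 bases of coding sequence before the stop codon are given for the pair of members with the lowest and the pair with the highest share of G and C in the last base of their codons, and capitals mark last codon bases that are G or C. The stretches were read from GENCODE release 29 transcripts on GRCh38. They lie in exon 15 of MYB on the plus strand (chr6:135217918-135217977), exon 8 of ETV6 on the plus strand (chr12:11890984-11891043), the only exon of CEBPA on the minus strand (chr19:33301341-33301400) and the only exon of CEBPB on the plus strand (chr20:50192009-50192068).
MYB: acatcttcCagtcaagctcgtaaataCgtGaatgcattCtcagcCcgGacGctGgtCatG
ETV6: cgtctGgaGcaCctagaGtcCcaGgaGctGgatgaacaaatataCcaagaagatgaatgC
CEBPA: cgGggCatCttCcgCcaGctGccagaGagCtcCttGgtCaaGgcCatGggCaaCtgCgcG
CEBPB: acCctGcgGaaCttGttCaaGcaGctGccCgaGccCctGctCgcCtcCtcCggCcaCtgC
In these stretches 10 of 20 last codon bases were G or C in MYB and 10 of 20 in ETV6, against 19 of 20 in CEBPA and 20 of 20 in CEBPB. Among members not shown, IRF8 had 9 of 20 with a MOLM-13 log2 change of -0.05. FLI1 had 15 of 20 with one of 0.99. Over the whole coding sequence the share was 45.6% in MYB, 62.6% in ETV6, 94.97% in CEBPA and 95.4% in CEBPB, and the other 6 members lay between 71.8% (IRF8) and 87.0% (SPI1).

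Library totals were 11000536 and 9868469 counts in MOLM-13 P-bodies, 5897625 and 7098927 in MOLM-13 cytosol, 18071473 and 17058567 in HEL P-bodies and 13153551 and 15569634 in HEL cytosol. Levels are given as CPM (counts relative to library size) scaled by TMM over all 8 libraries. The monocytic and granulocytic markers summed to 2355 to 4137 CPM in MOLM-13 libraries, against 7.55 to 9.02 CPM in HEL libraries, where MPO, CD68, CD86 and ELANE, 4 of the 10, were at 0 in every library. Most of the sum in MOLM-13 cytosol came from AZU1 (mean 1348 CPM), ELANE (1233) and MPO (1010). There LYZ had 166 CPM, MNDA 117, FCGR1A 110, CSF1R 20.8, CD86 14.3 and CD14 2.63. CD68 was near 0 in MOLM-13 too, with at most 5 counts in a library. The 13 erythroid and megakaryocytic markers summed to 27.4 to 35.0 CPM in MOLM-13, where PPBP and HBG1 were at 0, against 1283 to 2360 CPM in HEL. Nearly all of the MOLM-13 sum was EPOR, with a mean of 25.5 CPM in P-bodies and 31.4 CPM in cytosol. The 10 lymphoid markers summed to 36.7 to 39.6 CPM in MOLM-13 and 4.22 to 6.59 CPM in HEL. CD3D alone gave most of the MOLM-13 sum, with a mean of 33.1 CPM in P-bodies and 33.9 CPM in cytosol, while CD3E and CD2 were at 0 there. Nothing in the labels says that the libraries of a group came from separate cultures, so p-values measure only how these libraries vary, which may be technical.

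**Figure D1:**
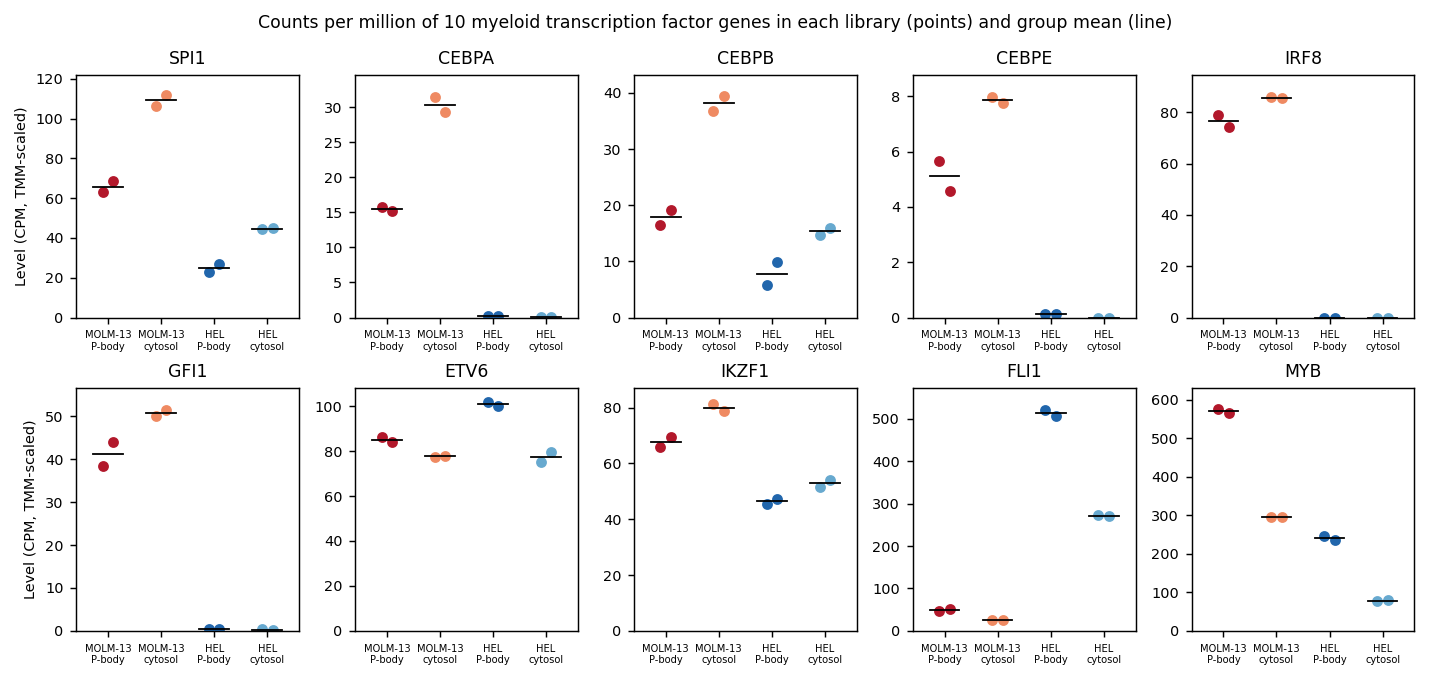
Level of each of the 10 genes in CPM, on linear axes that start at 0, in MOLM-13 P-bodies, MOLM-13 cytosol, HEL P-bodies and HEL cytosol. Points are the 2 libraries of a group and lines their mean. MYB and FLI1 stand higher in P-bodies than in cytosol in both lines, SPI1 and CEBPB stand lower in both, and IRF8, GFI1, CEBPA and CEBPE are near or at 0 in HEL.

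P-bodies of MOLM-13 were compared with its cytosol to ask which of these mRNAs are held in the granules. MYB and FLI1 were about 2-fold higher in P-bodies, ETV6 was slightly higher, SPI1, CEBPA and CEBPB were lower, and CEBPE, IRF8, GFI1 and IKZF1 did not pass the test. The 3 called higher and 3 called lower, of 10 tested, are shares near those of all 14089 genes tested, of which 32.4% were called higher and 28.5% lower (edgeR quasi-likelihood test, adjusted p below 0.05). The median log2 change was -0.16 over the 10 members and -0.04 over all tested genes.

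MYB (chr6:135181315-135219173, plus strand, 15 exons), the proto-oncogene of progenitor self-renewal, had 576 and 565 CPM in the P-body libraries of MOLM-13, against 296 and 294 CPM in its cytosolic libraries. Both P-body libraries lay far above both cytosolic ones, and the libraries of a fraction differed little. The log2 change was 1.06 with an SE of 0.05, or 2.09-fold higher (edgeR adjusted p = 3.0e-16). Of all tested genes, 86.2% had a lower change than MYB.

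FLI1 (chr11:128686535-128813267, plus strand, 9 exons), an ETS factor of megakaryocyte and endothelial development, had 46.1 and 52.0 CPM in MOLM-13 P-bodies, against 26.7 and 26.5 CPM in cytosol. The groups did not overlap, and the log2 change was 0.99 with an SE of 0.10 (edgeR adjusted p = 9.3e-09). ETV6 (chr12:11649854-11895402, plus strand, 8 exons), an ETS repressor needed for blood formation in the marrow, had 86.1 and 83.9 CPM in P-bodies, against 77.4 and 78.0 CPM in cytosol. Its groups did not overlap either, but the rise was small, with a log2 change of 0.24 and an SE of 0.07 (edgeR adjusted p = 0.00505), and it turned to -0.20 when libraries were scaled by their totals.

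The C/EBP factors lay on the other side. CEBPB (chr20:50190734-50192689, plus strand, a gene of a single exon), which drives macrophage genes and emergency granulopoiesis, had 16.5 and 19.2 CPM in MOLM-13 P-bodies, against 36.8 and 39.5 CPM in cytosol. It fell 1.98-fold, with a log2 change of -0.99 and an SE of 0.12 (edgeR adjusted p = 9.8e-08). CEBPA (chr19:33299934-33302564, minus strand, a gene of a single exon), which is required for the step to granulocyte and monocyte progenitors, had 15.8 and 15.2 CPM in P-bodies, against 31.4 and 29.3 CPM in cytosol. Both P-body libraries held about as little as each other, and the log2 change was -0.85 with an SE of 0.13 (edgeR adjusted p = 2.7e-06). CEBPE, which acts late, in granule formation of neutrophils, had 5.67 and 4.57 CPM in P-bodies, against 7.97 and 7.78 CPM in cytosol. Its P-body libraries were both the lower ones, but with 40 to 61 counts in each library its log2 change of -0.50, with an SE of 0.22, did not pass the test (edgeR adjusted p = 0.0564).

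SPI1 (chr11:47354860-47378576, minus strand, 5 exons) had 63.0 and 68.7 CPM in MOLM-13 P-bodies, against 106 and 112 CPM in cytosol. All P-body values were below all cytosolic ones, the log2 change was -0.62 with an SE of 0.07 (edgeR adjusted p = 6.4e-08), and it turned to 0.15 when the trend on GC and length was taken out. IRF8 (chr16:85898803-85922609, plus strand, 9 exons) had 79.0 and 74.2 CPM in P-bodies, against 85.9 and 85.5 CPM in cytosol, and its log2 change in the fit was -0.05 with an SE of 0.07 (edgeR adjusted p = 0.589). GFI1 had a log2 change of -0.19 with an SE of 0.09 (edgeR adjusted p = 0.0815). IKZF1, the zinc finger protein Ikaros of lymphoid and early myeloid cells, had one of -0.13 with an SE of 0.08 (edgeR adjusted p = 0.144). The levels above were scaled over all 8 libraries and the changes within the line, so that the fitted log2 change minus the log2 ratio of the printed levels is 0.11 in MOLM-13 and -0.08 in HEL.

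In HEL the same comparison could be made for 6 members, since CEBPA, CEBPE, IRF8 and GFI1 had 0 to 8 counts in each HEL library and fell below the filter on low counts. MYB, FLI1 and ETV6 were higher in HEL P-bodies, and CEBPB, SPI1 and IKZF1 were lower. Of all 14772 genes tested in HEL, 27.5% were called higher and 27.1% lower, and the median log2 change was 0.02 over the 6 members and -0.06 over all tested genes.

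MYB had 247 and 236 CPM in HEL P-bodies, against 78.0 and 79.4 CPM in HEL cytosol. The P-body libraries held about 3 times as much as the cytosolic ones, and the log2 change was 1.54 with an SE of 0.08, or 2.91-fold higher (edgeR adjusted p = 3.5e-10). Of all tested genes, 94.9% had a lower change than MYB. FLI1 had 521 and 507 CPM in P-bodies, against 273 and 271 CPM in cytosol, the highest levels of any member in this line. Its groups were well apart, with a log2 change of 0.84 and an SE of 0.07 (edgeR adjusted p = 5.7e-08). ETV6 had 102 and 100 CPM in P-bodies, against 75.2 and 79.7 CPM in cytosol, with a log2 change of 0.30 and an SE of 0.08 (edgeR adjusted p = 0.00614) that turned to -0.02 under library totals.

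CEBPB had 5.82 and 9.80 CPM in HEL P-bodies, against 14.6 and 16.0 CPM in HEL cytosol. Relative to their mean, its P-body libraries differed more from each other than those of the other members tested. Both still lay below the cytosol, with a log2 change of -1.05 and an SE of 0.20 (edgeR adjusted p = 0.000426). SPI1 had 23.1 and 26.7 CPM in P-bodies, against 44.5 and 44.8 CPM in cytosol. The log2 change of SPI1 was -0.92 with an SE of 0.11, or 1.89-fold lower (edgeR adjusted p = 5.8e-06). IKZF1 had 45.4 and 47.4 CPM in P-bodies, against 51.6 and 54.0 CPM in cytosol, a small fall with a log2 change of -0.27 and an SE of 0.10 (edgeR adjusted p = 0.0289). That call of IKZF1 was lost with DESeq2, with RLE scaling, without a filter and when HEL P-body replicate 1, HEL P-body replicate 2 or HEL cytosol replicate 2 was left out, and its highest adjusted p over the 11 alternatives was 0.196. Deposited counts could include antisense reads, since no strand setting is given in the sources used here. SENCR, antisense to FLI1 with 162 shared exon bases, had 199 and 177 counts in HEL P-bodies and 263 and 298 in HEL cytosol, against 8146, 7655, 4175 and 4861 counts of FLI1 in the same libraries. CEBPB-AS1, with 231 bases shared with CEBPB, had at most 19 counts in any library. CEBPA shares 659 and 482 exon bases with the antisense genes AC008738.3 and AC008738.5, for which no counts were found by symbol. IKZF1 and MYB have smaller antisense overlaps, of 110 and 103 bases.

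**Figure D2:**
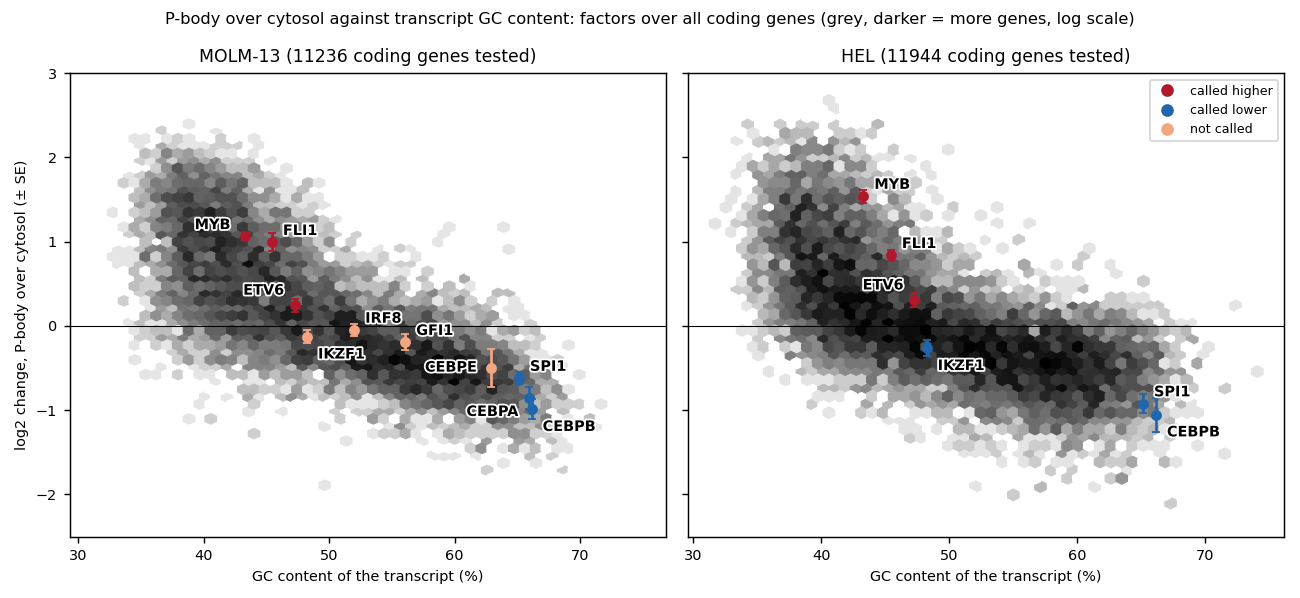
The log2 change of P-bodies over cytosol against the GC content of the transcript in percent, in MOLM-13 and HEL. Grey cells count all tested coding genes (darker means more, log scale), points are the transcription factor genes with SE bars, coloured by call, and 4 MOLM-13 and 18 HEL genes lie beyond the axis limits of -2.5 and 3. MYB, at 43.3% GC, has the highest change of the factors and CEBPB, at 66.2% GC, the lowest in both lines.

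The members ran almost in the order of their GC content. MYB had the lowest transcript GC content, 43.3%, followed by FLI1 with 45.5%, ETV6 with 47.3% and IKZF1 with 48.3%. IRF8 had 52.0% and GFI1 56.1%, and the highest were CEBPE with 62.9%, SPI1 with 65.2%, CEBPA with 65.9% and CEBPB with 66.2%. Every member called higher in P-bodies in either line had at most 47.3% GC, and every member called lower had at least 65.2%, except IKZF1 in HEL. As a description across genes, which are not independent replicates, Spearman's rho between change and GC content was -0.99 over the 10 members in MOLM-13 and -1 over the 6 in HEL.

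The same relation held across all coding genes tested, with a rho of -0.72 over 11236 genes in MOLM-13 and -0.67 over 11944 genes in HEL. With GC content of the last codon base the rho was -0.72 in MOLM-13 and -0.63 in HEL, and with transcript length it was 0.24 in MOLM-13 and 0.15 in HEL.

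Removing a smooth trend on GC content and length over all genes left part of the changes. In MOLM-13, MYB kept a log2 change of 0.51 (edgeR adjusted p = 2.4e-10) and FLI1 one of 0.63 (edgeR adjusted p = 1.5e-05). The other 4 calls in MOLM-13 were lost, with CEBPB at -0.28 (edgeR adjusted p = 0.0504), CEBPA at -0.19 (edgeR adjusted p = 0.231), SPI1 at 0.15 (edgeR adjusted p = 0.0786) and ETV6 at 0.01 (edgeR adjusted p = 0.949). IKZF1, at -0.30, gained a call there (edgeR adjusted p = 0.00156). In HEL all 6 calls were kept, with MYB at 1.19, FLI1 at 0.67 and ETV6 at 0.24, and with CEBPB at -0.48, SPI1 at -0.38 and IKZF1 at -0.26. Whether composition acts in the cells or in the making of the libraries was not tested.

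**Figure D3:**
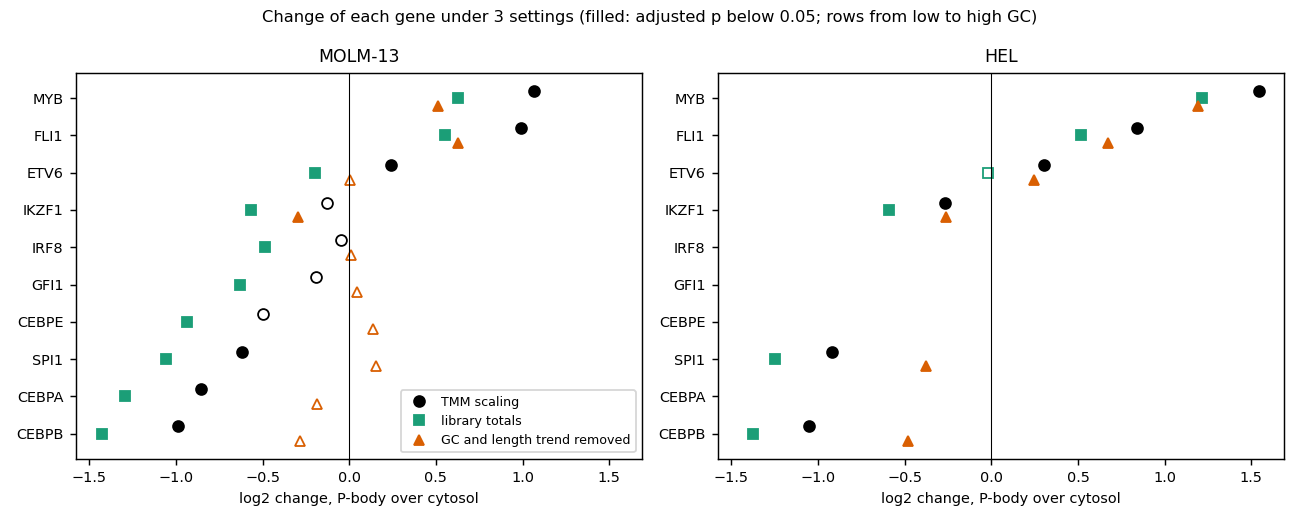
The log2 change of P-bodies over cytosol for each gene, ordered by GC content, with TMM scaling (circles), scaling by library totals (squares) and the trend on GC and length taken out (triangles), in MOLM-13 and HEL. Filled symbols have an adjusted p below 0.05. MYB and FLI1 stay above 0 in all 3 settings in both lines, with 0.51 as the lowest value, and the symbols of SPI1, CEBPA, CEBPB and CEBPE in MOLM-13 draw close to 0 when the trend is removed.

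With library totals as the scale, the median of all genes moved by -0.44 in MOLM-13 and by -0.33 in HEL. Under totals 2903 genes were called higher and 7154 lower in MOLM-13, in place of 4558 and 4015, and 2762 higher and 6761 lower in HEL, in place of 4061 and 4006. Of the 10 members, 2 were then higher (MYB with 0.63 and FLI1 with 0.56) and 8 lower in MOLM-13, and in HEL MYB had 1.22 and FLI1 0.51. The changes of MYB and FLI1 passed the test in each line under all 11 alternatives tried.

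The 3′ UTRs were searched for seed matches of miRNAs known from myeloid cells, because miRNA targets are carried to P-bodies by the silencing complex. miR-155-5p, an miRNA of activated and leukaemic myeloid cells, is shown with its seed (bases 2 to 8) in capitals, from RefSeq on GRCh38.p14. Under it stand the matches of the 7 bases AGCATTA, in capitals, searched on the mRNA strand only, with flanking bases, from GENCODE release 29 on GRCh38. The match of SPI1 lies in exon 5 (chr11:47355168-47355192, minus strand), that of CEBPB in its single exon (chr20:50192614-50192638, plus strand), that of IRF8 in exon 9 (chr16:85922402-85922426, plus strand) and that of GFI1 in exon 7 (chr1:92474815-92474839, minus strand). The 2 matches of MYB lie in exon 15, on the plus strand, at chr6:135217984-135218008 and chr6:135218400-135218424.
hsa-miR-155-5p: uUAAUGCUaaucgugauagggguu
SPI1 site: ccgctggccatAGCATTAagccctc
CEBPB site: tttccgtttcaAGCATTAagaacac
IRF8 site: ttgtccaacaaAGCATTAtattttt
GFI1 site: atcttctggtaAGCATTAtgtttgt
MYB first site: atttccagaaaAGCATTAtggtttt
MYB second site: aaatcagtaaaAGCATTActctaag
These letters stood in the 3′ UTR of 5 of the 10 members, against 10.9% of 12488 3′ UTRs of tested genes (of at least 50 bases). Among those within 20% of a member in length, the share was 2.43% (SPI1) to 7.57% (IRF8) for the 5 members with a match. For the members without a match it was 0.80% (CEBPE) to 28.9% (IKZF1). The 5 members with a match had MOLM-13 changes of 1.06 (MYB), -0.05 (IRF8), -0.19 (GFI1), -0.62 (SPI1) and -0.99 (CEBPB), so both directions were among them. The seed match of miR-223-3p was found in GFI1 alone, beside 8.73% of all 3′ UTRs searched. Among those within 20% of GFI1 in length the share was 6.29%. That of miR-34a-5p was found in ETV6, IKZF1 and MYB, beside 15.9% of all 3′ UTRs searched. Among those of similar length its share was 28.5% (ETV6), 28.8% (IKZF1) and 15.3% (MYB). A match is a description of the letters and not a site shown to be used.

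The host gene of miR-155, MIR155HG, had 33 and 38 counts in MOLM-13 P-bodies and 44 and 61 in MOLM-13 cytosol, against 1 and 2 counts in HEL P-bodies and 0 and 1 in HEL cytosol. It was thus counted in MOLM-13 and close to absent in HEL, with cytosolic means of 7.26 and 0.03 CPM. MIR223HG, the host gene of miR-223, had cytosolic means of 164 CPM in MOLM-13 and 32.7 CPM in HEL. MIR34AHG, that of miR-34a, had a mean of 4.16 CPM in MOLM-13 cytosol and 0 counts in every HEL library. The pentamer ATTTA of AU-rich elements was counted 9 times in FLI1, where the median of 3′ UTRs within 20% of its length was 5, and 6 times each in MYB and IRF8, where it was 2. GFI1 had 3 (median 2), IKZF1 9 (median 10), ETV6 5 (median 10), CEBPA 1 (median 2) and CEBPB 1 (median 1), and SPI1 and CEBPE had none (median 0 for each). At least 1 ATTTA stood in 70.6% of all 3′ UTRs searched, and in 45.5% of those within 20% of SPI1 in length and 98.2% of those as near ETV6.

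Cytosolic levels of MOLM-13 were compared with those of HEL to place the factors in each line. IRF8, GFI1, CEBPA and CEBPE were counted in MOLM-13 and almost absent from HEL, FLI1 was about 10-fold lower in MOLM-13, MYB, SPI1, CEBPB and IKZF1 were higher in MOLM-13, and ETV6 was level. Of the 6 members counted in both lines, 4 were called higher and 1 lower. Among all 17477 tested genes 44.2% were called higher and 40.1% lower, and among the 11984 that passed the filter on low counts in each line 41.4% were higher and 42.2% lower. In bulk RNA, fewer cells that express a gene and less RNA per cell cannot be told apart, and neither can the line and anything else that differed between its libraries and those of the other line.

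IRF8 had 85.9 and 85.5 CPM in MOLM-13 cytosol (560 and 671 counts), against 0 counts in both HEL cytosolic libraries. With a floor of 3 counts over the HEL group, or 0.0904 CPM, it was at least 948-fold higher in MOLM-13. GFI1 had 327 and 403 counts in MOLM-13 cytosol and 5 and 3 in HEL cytosol, a ratio of 211 with a 95% interval of 106 to 490 that covers counting error only. CEBPA had 205 and 230 counts in MOLM-13 cytosol, against 2 and 1 in HEL cytosol. Its ratio was 335, with a counting interval of 114 to 1631. CEBPE, with 52 and 61 counts against 0 and 0, was at least 87.1-fold higher. These 4 genes passed the filter on low counts through MOLM-13 only, so no test is given for them.

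FLI1 had 26.7 and 26.5 CPM in MOLM-13 cytosol, against 273 and 271 CPM in HEL cytosol. It was the only member lower in MOLM-13 in the test, 10.2-fold, with a log2 change of -3.36 and an SE of 0.08 (edgeR adjusted p = 3.8e-19). MYB had 296 and 294 CPM in MOLM-13 cytosol and 78.0 and 79.4 CPM in HEL cytosol, a log2 change of 1.91 with an SE of 0.06 (edgeR adjusted p = 6.4e-17). Both genes changed by far more than their replicates did.

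SPI1 had 106 and 112 CPM in MOLM-13 cytosol, against 44.5 and 44.8 CPM in HEL cytosol. Its log2 change of 1.29, with an SE of 0.09 (edgeR adjusted p = 2.8e-11), came down to 0.13 (edgeR adjusted p = 0.14) with the trend on GC and length taken out. CEBPB had a log2 change of 1.31 with an SE of 0.16 (edgeR adjusted p = 2.4e-07), and 0.39 (edgeR adjusted p = 0.0137) with that trend removed. IKZF1 had one of 0.60 with an SE of 0.09 (edgeR adjusted p = 2.2e-06), or 0.90 with the trend removed. ETV6 had 77.4 and 78.0 CPM in MOLM-13 cytosol and 75.2 and 79.7 CPM in HEL cytosol, and the groups overlapped, with a log2 change of 0.01 and an SE of 0.08 (edgeR adjusted p = 0.954). ETV6 moved with the setting, to -0.28 without a filter on low counts, 0.25 under the CPM minimum and 0.36 with the trend removed, and was called in each of these. The median of all genes moved by -0.29, 0.24 and 0.16 in the same settings. Nuclear RNAs, 4 in the list, summed to 5080 to 5373 CPM in MOLM-13 cytosol and 711 to 778 CPM in HEL cytosol. Most of each sum was MALAT1, with a mean of 4741 CPM in MOLM-13 cytosol and 651 CPM in HEL cytosol. NEAT1 had 234 and 34.6 CPM, SNHG14 240 and 48.1 CPM, and KCNQ1OT1 11.8 and 10.7 CPM, in the same order. The part of nuclear RNAs in these differences was not tested.

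**Figure D4:**
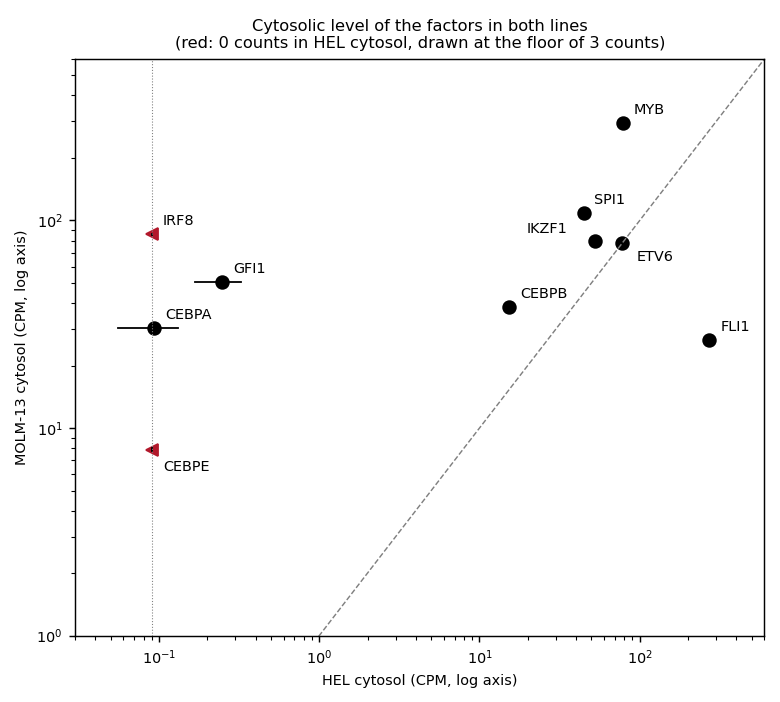
Cytosolic level of each gene in MOLM-13 against HEL in CPM, on log axes, with the mean of 2 libraries as a point, both libraries as the ends of the bars, and the dashed line at equal levels. The dotted line is the floor of 3 counts in HEL cytosol, where the genes with 0 counts are drawn in red. IRF8, GFI1, CEBPA and CEBPE lie far left of the dashed line, FLI1 right of it, and ETV6 on it.

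Per kilobase of transcript, which allows genes to be set side by side, MYB was the most abundant member in MOLM-13 cytosol with 89.4 ± 0.31 CPM per kb (SD, n = 2), followed by SPI1 with 77.8 ± 2.78. IRF8 came next with 28.3 ± 0.08, and CEBPB (19.5 ± 0.98), GFI1 (17.8 ± 0.30), ETV6 (13.0 ± 0.07), IKZF1 (12.7 ± 0.26), CEBPA (11.6 ± 0.57), FLI1 (6.44 ± 0.03) and CEBPE (5.07 ± 0.09) followed. Of these neighbours, only ETV6 and IKZF1 differed by less than the sum of their SDs. In HEL cytosol the order was FLI1 with 66.0 ± 0.26 CPM per kb (SD, n = 2), SPI1 with 31.8 ± 0.13, MYB with 23.8 ± 0.30, ETV6 with 12.9 ± 0.53, IKZF1 with 8.38 ± 0.28 and CEBPB with 7.84 ± 0.50. IKZF1 and CEBPB did not differ beyond their spread there, and GFI1 and CEBPA were under 0.1 CPM per kb. These levels rest on the length of 1 annotated transcript for each gene, and the isoforms used by the cells are not known from the counts.

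In P-bodies the order shifted. MYB led in MOLM-13 P-bodies with 173 ± 2.40 CPM per kb (SD, n = 2), against 46.9 ± 2.85 for SPI1, and FLI1 led in HEL P-bodies with 125 ± 2.44, against 73.2 ± 2.38 for MYB and 17.8 ± 1.81 for SPI1. SPI1 stood above MYB in HEL cytosol and below it in HEL P-bodies.

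The change of P-bodies over cytosol was then compared between the lines, as MOLM-13 minus HEL in one fit of all 8 libraries. Among the 6 members counted in both lines, MYB alone was called, with a difference of -0.67 on the log2 scale and an SE of 0.09 (edgeR adjusted p = 8.7e-06), so its rise in P-bodies was smaller in MOLM-13. The rise of MYB in that fit was 0.95 in MOLM-13 and 1.62 in HEL on the log2 scale. Of all genes tested for this difference, 9.15% were called higher and 13% lower in MOLM-13, and of those that passed the filter in each line 12.9% were higher and 17.6% lower. The difference of MYB was kept in all 15 alternatives, between -0.74 and -0.32. It came to -0.32 without HEL P-body replicate 1 and to -0.36 and -0.39 without HEL cytosol replicate 1 and replicate 2, and leaving out these libraries moved the median of all genes by 0.30, 0.29 and 0.28. SPI1 (0.11), CEBPB (-0.12), ETV6 (-0.25), IKZF1 (-0.05) and FLI1 (-0.04) were not called, with SEs of 0.11 to 0.25. SPI1 reached a call, at 0.50, with the trend on GC and length taken out (edgeR adjusted p = 0.00318).

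Relatives of the factors gave a mixed picture, to be read beside the 32.4% higher and 28.5% lower of all genes tested in MOLM-13 and the 27.5% and 27.1% in HEL. Of the other ETS factors, 7 of 15 tested rose and 4 fell in P-bodies of MOLM-13 (median log2 change 0.27), and 7 of 17 rose and 3 fell in those of HEL (median 0.03). ELF1, an ETS activator of lymphoid and myeloid genes, was 3.06-fold higher in MOLM-13 P-bodies and 2.70-fold higher in HEL P-bodies. ERF, an ETS repressor, was 1.96-fold lower in MOLM-13 (log2 change -0.97, SE 0.17, edgeR adjusted p = 2.1e-05) and was not called in HEL (log2 change -0.37). ETV5 was 1.91-fold lower in HEL and 1.28-fold lower in MOLM-13.

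Of the other bZIP factors, the superfamily of the C/EBP proteins, 7 of 19 tested rose and 8 fell in P-bodies of MOLM-13 (median log2 change -0.22), and 4 of 19 rose and 8 fell in those of HEL (median -0.25). BACH1, a haem-regulated repressor, rose 3.73-fold in MOLM-13 and 2.47-fold in HEL, and NFE2L2, the regulator of the oxidative stress response, rose 3.13-fold in MOLM-13 and 2.17-fold in HEL. JUND fell 2.79-fold in MOLM-13 and 2.67-fold in HEL, and CEBPD, the C/EBP factor nearest in use to CEBPB, fell 1.84-fold in MOLM-13. Of the other IRF factors none of 6 was higher in either line, 1 of 6 was lower in MOLM-13 (IRF3, 1.91-fold) and 4 of 6 in HEL, where the median log2 change was -0.46.

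Partner proteins were counted too. Of 25 cofactors and corepressors, 10 rose and 8 fell in P-bodies of MOLM-13 (median log2 change -0.04), and 5 rose and 13 fell in those of HEL (median -0.23). NCOR1, a corepressor of nuclear receptors, was 2.66-fold higher in P-bodies of MOLM-13 and 1.95-fold higher in those of HEL. CTBP1 was lower in both lines, 1.95-fold in MOLM-13 and 2.95-fold in HEL. Of the other haematopoietic transcription factors, 7 of 26 rose and 12 fell in MOLM-13 (median -0.24), and 9 of 23 rose and 4 fell in HEL (median -0.01). MEF2C, a factor of monocytic and B cell differentiation, was 2.38-fold higher in MOLM-13 P-bodies and 1.34-fold higher in HEL P-bodies. RUNX1 was lower in both lines, 1.60-fold in MOLM-13 and 1.63-fold in HEL.

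Genes of myeloid effector function, many of them known to be driven by SPI1 and the C/EBP proteins, were called lower in P-bodies more often than higher. In MOLM-13, 11 of 41 tested were higher (26.8%) and 20 lower (48.8%), beside 32.4% and 28.5% of all tested genes, with a median log2 change of -0.33 beside -0.04. In HEL 4 of 26 were higher (15.4%) and 11 lower (42.3%), beside 27.5% and 27.1% of all tested genes, with a median of -0.35 beside -0.06. In MOLM-13 P-bodies the neutrophil granule proteases fell, PRTN3 2.05-fold and ELANE 1.99-fold, whereas MNDA, a nuclear antigen of myeloid cells, rose 2.64-fold and TLR4, the receptor for lipopolysaccharide, rose 2.38-fold. In cytosol PRTN3 had 1333 and 1282 CPM in MOLM-13, against 0 counts in every HEL library, and LCN2, a neutrophil granule protein, had 0 counts in every MOLM-13 library, against 42.6 and 41.9 CPM in HEL. Between the cytosols, lists were counted over genes that passed the filter in each line, of which 41.4% were higher in MOLM-13 and 42.2% lower. Of 24 such effector genes 18 were higher and 6 lower, of 18 other bZIP factors 14 were higher and 3 lower, and of 14 other ETS factors 5 were higher and 9 lower. Among relatives, CEBPD had 196 and 174 CPM in MOLM-13 cytosol and 1.76 and 0.84 CPM in HEL cytosol. GFI1B, the erythroid and megakaryocytic paralogue of GFI1, had 1 and 2 counts in MOLM-13 cytosol, against 2824 and 3835 counts in HEL cytosol.

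The genes nearest in pattern were found by the Euclidean distance of log2 levels over the means of 4 groups, among 17477 genes. Each gene was first centred on its own mean over the 4 groups, so the distance compares patterns and not abundance. ZZEF1 was nearest to SPI1 (distance 0.04), KRIT1 to MYB (0.06) and TREM1, a receptor of activated neutrophils and monocytes, to GFI1 (0.09). KBTBD11 was nearest to IRF8 (0.20), CRIP1 to CEBPA (0.14), MT1E to CEBPE (0.09), RAB5IF to ETV6 (0.06), NAGK to IKZF1 (0.06) and DUSP8P5 to CEBPB (0.09). IRF8, CEBPA, CEBPE and GFI1 had few or no counts in HEL and passed the filter on low counts through MOLM-13 only. For these genes the distance cannot tell a shared pattern in HEL from near absence there, so no likeness to their neighbours is drawn. The groups share libraries, line and depth, so likeness over 4 means is a description.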

How the data were processed

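Values were raw read counts per gene symbol, deposited by the authors in 1 table for each line. STAR, SAMtools 1.12, DESeq2 and the build GRCh38 are named in the submitters' processing notes. The sources used here give neither the counter, annotation and strand setting nor how P-bodies were isolated. The kits were miRNeasy Micro for total RNA and NEBNext Ultra II for libraries, per the labels' protocols.

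The tables, of 61544 rows each, were joined by symbol. A set of 112 symbols on 1348 rows was left out because a symbol named several rows, and 60196 were used, of which 55861 matched GENCODE release 29. Totals were 5897625 to 18071473 counts per library. P-bodies and cytosol were compared within each line, and cytosol and the difference of changes between lines in 1 fit of 8 libraries, with edgeR 4.0.16 (R 4.3.3) by the quasi-likelihood test, TMM scaling, filterByExpr with a minimum count of 10 and Benjamini-Hochberg adjustment over all genes tested, called below 0.05. The procedure was tested on simulated data with known changes. Standard errors are the absolute log2 change over the square root of F. Changes are relative to the other genes of a library.

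GC content, lengths and UTRs came from 1 transcript per gene (APPRIS principal first). Alternatives were RLE scaling, library totals, no filter, a CPM of at least 5 in at least 2 libraries, DESeq2 1.42.0, the replicate number as a block, removal of the trend on GC content and length, leaving out each library and, for cytosol, only the cytosolic libraries. Replicates of a group differed beyond counting error (chi-square per degree of freedom of 1.87 to 6.15) and were kept as separate samples. The members, gene lists and tests were chosen with earlier results of these data known. All members were named, and from each list the called genes with the greatest changes, up to 3 per direction and comparison. Some genes that these rules would name are not reported here.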

Additional observations from a re-analysis of the deposited data

Results flagged for a closer look

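The change of P-bodies over cytosol differed between the lines for MYB by the interaction test over 8 libraries, MOLM-13 minus HEL. The difference was -0.67 on the log2 scale (edgeR adjusted p = 8.7e-06), with a log2 change of 0.95 in MOLM-13 and 1.62 in HEL in the same fit. Its size depended on the libraries used and lay between -0.74 and -0.32 over 15 alternatives. The smallest, -0.32, came without HEL P-body replicate 1, where the median of all genes moved by 0.30. Both P-body libraries were above both cytosolic ones in each line. CEBPA, CEBPE, IRF8 and GFI1, with at most 8 counts in any HEL library, are given no test of this difference.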

How the results depend on the processing

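The calls of MYB and FLI1 in P-bodies of both lines, and of MYB, FLI1, CEBPB and IKZF1 between the cytosols, were kept in every alternative tried. Members called lower in MOLM-13 P-bodies numbered 8 under library totals, 6 under the CPM minimum and 1 with the trend on GC and length taken out, in place of 3. Members called lower between the cytosols numbered 2 without a filter, in place of 1, where the median of all genes moved by -0.29. For the difference between lines, members called lower numbered 2 under the CPM minimum, in place of 1, and members called higher 1 with the trend removed, in place of 0. Directions turned for ETV6 in P-bodies under library totals (-0.021 in HEL, -0.20 in MOLM-13) and between the cytosols without a filter (-0.28), for SPI1 in MOLM-13 P-bodies with the trend removed (0.15), and in HEL for PTPRC under library totals (-0.063) and with the trend removed (-0.53), IRF3 (0.043) and HDAC2 (-0.17) with the trend removed. The difference between lines of CYBA turned to 0.12 with the trend removed. The moves of ETV6 and of PTPRC under library totals, and of ETV6 without a filter, were as large as those of the median of all genes in these settings. For the other turns the cause was not tested. Over all single-gene values and alternatives 1820 stayed as they were, 85 lost a call, 14 gained one and 9 turned.

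Deviations of same-numbered libraries correlated at -0.07 in HEL and -0.01 in MOLM-13. This cannot tell whether same-numbered libraries came from a shared preparation, since other noise could hide it, and the labels do not say. With the replicate number as a block, 7996 genes were called in HEL, 8589 in MOLM-13, 14672 between the cytosols and 3713 for the difference between lines, in place of 8067, 8573, 14742 and 3875, and no call of a member changed. Called genes for that difference were 41.3% higher in MOLM-13, but 50.5% with RLE scaling, 51.7% under library totals and 73.9% to 76.9% when HEL P-body replicate 1 or either HEL cytosolic library was left out. Depth limits CEBPA, CEBPE, IRF8 and GFI1, which had at most 8 counts in any HEL library.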
